A study of Mus musculus with 28 samples.

Results

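The question here was which transcripts of MC38 tumour cells respond to TNF and interferon gamma (IFNG) given together by more, or by less, than the separate responses add up to. MC38 is a mouse colon adenocarcinoma line of C57BL/6 origin. The comparison takes 8 of the 28 samples of the series, all of MC38 cells and no genetic change or other agent is recorded for them. The 4 groups hold 2 libraries each: cells given TNF and IFNG together for 6 hours, cells given TNF alone for 6 hours, cells given IFNG alone for 6 hours, and untreated cells, for which no time is recorded. A further 2 libraries, of cells given supernatant, shared the estimate of spread and took no part in the contrast. Whether the 2 libraries of a group were grown separately is not recorded, so the p-values reflect library-to-library spread that may be technical.

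TNF is a cytokine that acts through its receptors on the NF-kB transcription factors, whose targets include the IkB inhibitors that end the response. IFNG acts through the JAK kinases on transcription factors that bind gamma activated sites (GAS). These induce a second wave of factors, among them IRF1, which binds interferon stimulated response elements (ISRE). The chemokines CXCL9, CXCL10 and CXCL11 draw activated T cells through their receptor CXCR3, and are known as genes at which the inputs of both cytokines meet.

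The interaction was the mean log2 level with both cytokines, minus the mean with TNF, minus the mean with IFNG, plus the mean of untreated cells. A value of 0 means that the log2 effects added up, so that the fold changes multiplied. A positive value lies above additivity and a negative value below it. The test was limma's moderated test over 12720 genes with Benjamini-Hochberg adjustment. At an adjusted p under 0.05 it called 2 genes, 0.0157% of those tested: the chemokine gene Cxcl9 above additivity and the transcription factor gene Irf1 below it. The next smallest adjusted p in that limma test was 0.962.

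Both genes are shown first with the sequence around their starts, beside that of Cxcl10, the neighbour of Cxcl9 in the chemokine cluster, because the inputs of both cytokines are known to meet at such promoters. The 300 bases run from 250 before the start to 50 after it, in RefSeq's GRCm38.p6: chr5:92328030-92328329 on the minus strand for Cxcl9, chr11:53769764-53770063 on the plus strand for Irf1 (the first of 2 windows listed) and chr5:92348840-92349139 on the minus strand for Cxcl10. Capitals mark matches to 4 motifs searched on both strands: the NF-kB consensus of 10 letters, its short form GGGNNTTCC, GAS (TTCNNNGAA) and ISRE (GAAANNGAAA). The NF-kB forms overlap each other.
Cxcl9: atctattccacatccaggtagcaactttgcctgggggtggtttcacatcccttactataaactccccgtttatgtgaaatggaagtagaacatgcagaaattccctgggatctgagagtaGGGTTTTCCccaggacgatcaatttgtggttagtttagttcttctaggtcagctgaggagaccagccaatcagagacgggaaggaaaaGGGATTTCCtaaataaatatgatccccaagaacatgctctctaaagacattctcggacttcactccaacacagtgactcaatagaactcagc
Irf1: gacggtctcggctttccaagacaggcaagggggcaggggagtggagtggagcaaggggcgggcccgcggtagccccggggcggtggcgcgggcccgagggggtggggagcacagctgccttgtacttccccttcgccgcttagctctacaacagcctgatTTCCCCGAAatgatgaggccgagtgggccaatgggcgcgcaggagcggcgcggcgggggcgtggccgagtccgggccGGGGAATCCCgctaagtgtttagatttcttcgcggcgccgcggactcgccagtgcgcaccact
Cxcl10: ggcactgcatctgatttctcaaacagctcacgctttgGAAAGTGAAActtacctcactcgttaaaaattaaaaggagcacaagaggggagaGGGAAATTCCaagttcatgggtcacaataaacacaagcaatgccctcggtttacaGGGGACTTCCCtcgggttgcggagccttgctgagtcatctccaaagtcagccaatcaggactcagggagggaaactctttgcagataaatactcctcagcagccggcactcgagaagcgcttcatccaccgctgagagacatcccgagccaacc
In the Cxcl9 window the short NF-kB form began 130 and 42 bases before the start, and no GAS or ISRE letters of these forms were found. The Irf1 window held a GAS match from 90 bases before the start and an NF-kB match of 10 letters from 13 bases before it. In the Cxcl10 window an ISRE match began 213 bases before the start, and NF-kB matches of 10 letters began 159, 104 and 103 bases before it. Of all 32851 windows in the table, 8.46% held the 10-letter NF-kB form, 5.82% the short form, 8.3% the GAS form and 3.44% the ISRE form. These are matches of letters, and binding was not measured. Other forms of IFNG-responsive elements were not searched, so their absence from the Cxcl9 window is not shown.

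Cxcl9 (chromosome 5, 92321347 to 92328079, minus strand, GRCm38) had log2 CPM values of 6.15 and 6.11 with both cytokines, -0.40 and -0.16 with TNF, 2.58 and 2.74 with IFNG, and 0.52 and 0.28 in untreated cells. The levels with both cytokines stood far above all other libraries, the IFNG libraries came next, and the TNF libraries lay below the untreated ones. No group overlapped another. The effect of both cytokines was 5.73, against -0.68 for TNF and 2.26 for IFNG (log2 differences from untreated cells, SE 0.23 each). The sum of the single effects was 1.57, and the interaction was 4.15 ± 0.32 (SE; 95% interval 3.43 to 4.88; limma, adjusted p = 0.00492), a level 17.8 times that expected from adding the log2 effects. That fold rests on low levels, with the TNF libraries on step 7 and the untreated ones on step 10 of the distinct values counted from the lowest. With 5 CPM added before taking logarithms the Cxcl9 interaction was 2.85. Thus TNF added 3.47 to the log2 level in the presence of IFNG. The departure held on the linear scale too: the pair gave a mean of 70.0 CPM, and the linear sum of the single effects was 5.82 CPM. In bulk libraries such as these, fewer cells with a transcript and less of it per cell cannot be told apart. The single-effect estimates share libraries with the interaction and are given with no p of their own.

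Irf1 (chromosome 11, 53770014 to 53778374, plus strand, GRCm38) had log2 CPM values of 10.47 and 10.53 with both cytokines, 9.60 and 9.44 with TNF, 10.08 and 10.15 with IFNG, and 7.04 and 7.07 in untreated cells. All treated libraries stood well above the untreated ones, and the pair of cytokines lay slightly above IFNG alone. The effects were 3.44 with both cytokines, 2.47 with TNF and 3.06 with IFNG (SE 0.12 each). Their sum was 5.52, so the interaction was -2.08 ± 0.17 (SE; 95% interval -2.46 to -1.70; limma, adjusted p = 0.00492). On the linear scale the distance was far smaller: 1448 CPM with the pair against a linear sum of 1713 CPM, an excess of -265 ± 57.9 CPM (SE) and a ratio of 0.85. The Irf1 level with both cytokines was thus 0.24 of that expected from adding the log2 effects.

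Both calls rest on few libraries. The 2 calls ended without IFNG replicate 1 (adjusted p = 0.0607 for both in limma) and without untreated replicate 1 (adjusted p = 0.0514 for both in limma), and Irf1 also missed the threshold without IFNG replicate 2 (adjusted p = 0.052) and in the fit with no intensity trend (adjusted p = 0.0883). The estimates themselves stayed between 4.03 and 4.28 for Cxcl9 and between -2.16 and -2.00 for Irf1 when any 1 library was left out. T cell markers with an entry, 3 of 17, also summed highest with both cytokines, at 17.0 to 19.6 CPM, against 6.53 to 11.3 with TNF, 4.68 to 7.51 with IFNG and 3.75 to 4.68 in untreated cells; Il2 made up most of it, and their part in the results was not tested.

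**Figure D1:**
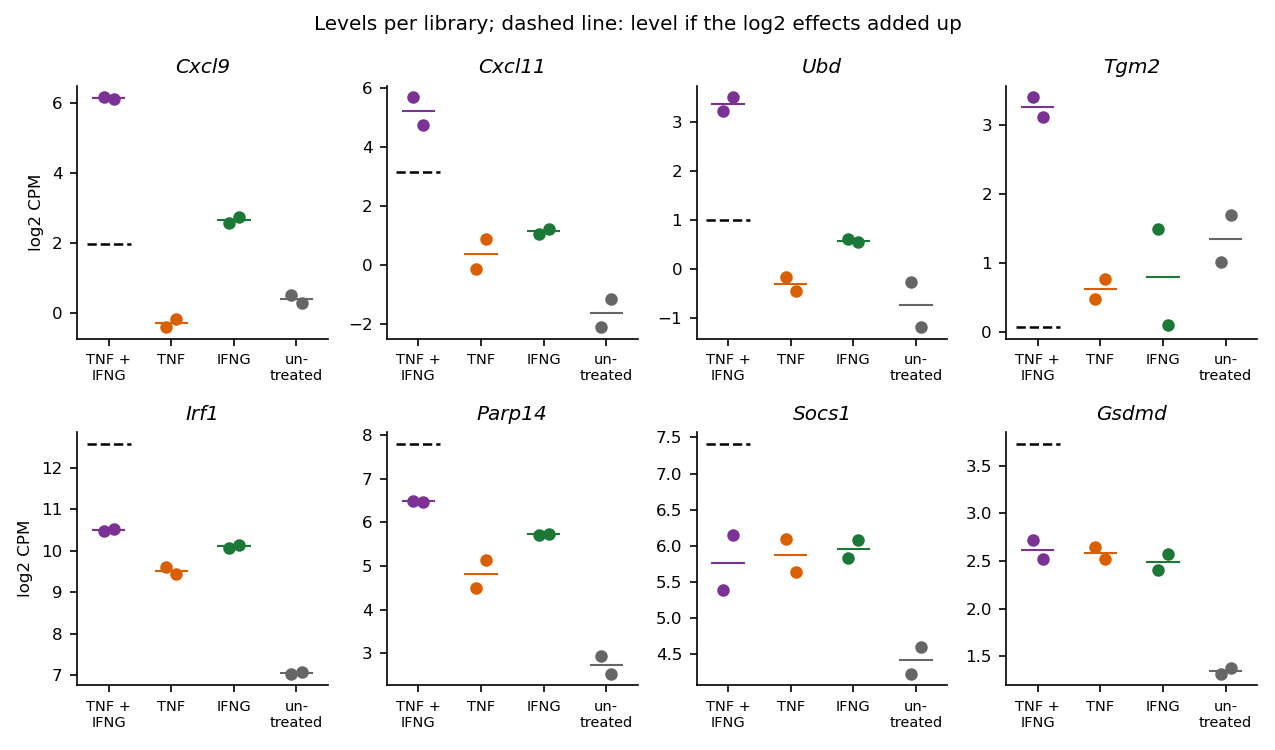
Levels of 8 genes in log2 CPM (vertical axis) by group, with 1 point per library and a short line at each group mean. The dashed line at TNF + IFNG is the level at which the log2 effects would add up: the pair lies above it for Cxcl9, Cxcl11, Ubd and Tgm2, and below it for Irf1, Parp14, Socs1 and Gsdmd.

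The median interaction over the 12720 genes was -0.04, and 5845 genes lay above additivity and 6875 below. Among large estimates the balance was the other way, with 201 genes at 2 or more and 105 at -2 or less. At an unadjusted p under 0.05, 500 genes passed (3.93% of those tested), of which 229 lay above additivity (1.8%) and 271 below it (2.13%). Apart from Cxcl9 and Irf1, none of these passed the adjusted threshold, so they are given below as estimates. With 2 libraries a group, the median half-width of the 95% interval was 0.833, so that for a typical gene a departure of less than that could not be told from additivity at this precision. That interval is not adjusted for the number of genes, whereas the calls were. The largest unadjusted p that passed was 7.74e-07 in limma, so departures well above 0.833 could go uncalled.

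**Figure D2:**
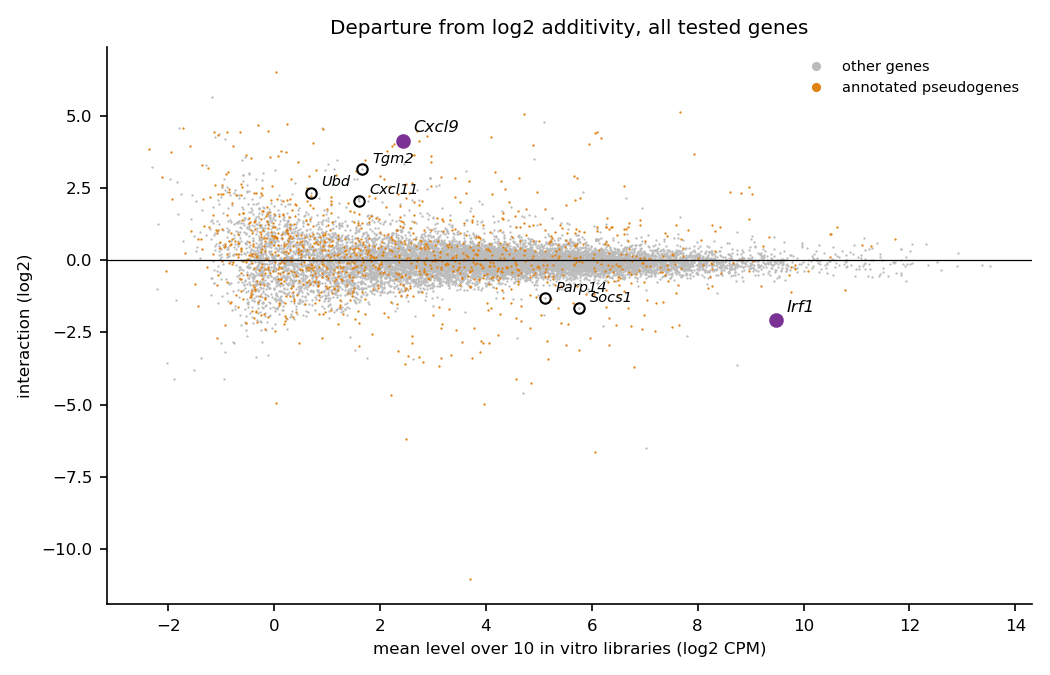
Interaction (log2, vertical axis) against the mean level over 10 in vitro libraries (log2 CPM, horizontal axis), 1 point per tested gene, with annotated pseudogenes in orange. Filled circles mark Cxcl9 and Irf1, which passed the adjusted threshold, and open circles mark 5 other genes of the text; low-level genes and pseudogenes spread widest.

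Upstream genes passed no threshold. Of the 11 tested genes of the IFNG receptor, JAK and STAT list, none had an unadjusted p under 0.05, and the median was 0.00. The ends of this list were Tyk2, a JAK family kinase, at 0.36 (95% interval -1.62 to 2.33), and Ifngr1, the ligand-binding receptor chain, at -0.51 (-1.54 to 0.53). The 5 NF-kB subunit genes lay between -0.24 for Relb and 0.10 for Nfkb2, with none under an unadjusted p of 0.05. Cxcl10, Nfkbia and Cd274, described in the paragraphs that follow, were chosen as examples after their values were seen.

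Among the 7 tested interferon regulatory factor genes, Irf1 was the 1 gene past either threshold, and the list median was -0.04. The others spread from 0.82 for Irf3 to -1.16 for Irf7, and their 95% intervals all held 0.

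The estimates of the 3 CXCR3 ligand genes differed in sign, with 2 above additivity at an unadjusted p under 0.05, against 1.8% of all genes. Cxcl11 had log2 CPM values of 5.69 and 4.77 with both cytokines, -0.16 and 0.89 with TNF, 1.05 and 1.23 with IFNG, and -2.12 and -1.18 in untreated cells. The pair stood far above every other library, the TNF and IFNG groups were close to each other, and the untreated values lie on steps 2 and 4 of the distinct values counted from the lowest, at the floor of the table. The interaction was 2.08 ± 0.68 (SE; 95% interval 0.53 to 3.63; unadjusted p = 0.0143 and adjusted p = 0.962 in limma). The pair gave 39.4 CPM against a linear sum of 3.24 CPM. Cxcl11 is annotated as a polymorphic pseudogene in GENCODE for GRCm38, the sequence of a C57BL/6 mouse, and its reads were counted like those of any gene.

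Cxcl10 had log2 CPM values of 8.63 and 9.22 with both cytokines, 6.85 and 6.75 with TNF, 7.25 and 7.31 with IFNG, and 4.71 and 4.53 in untreated cells. Its groups did not overlap, and each single treatment stood above untreated cells. The estimates were 4.31 for both cytokines, 2.18 for TNF and 2.66 for IFNG (SE 0.26 each), and the interaction was -0.53 ± 0.37 (SE; 95% interval -1.38 to 0.31; unadjusted p = 0.187 in limma). On the linear scale the pair gave 496 CPM, against a linear sum of 242 CPM, or 2.05 times that sum. So Cxcl10 lay above linear additivity and on the low side of log2 additivity, whereas Cxcl9 lay above both.

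The separate list of neutrophil and monocyte chemokine genes had 8 tested members with a median of 0.36, of which 1 had an unadjusted p under 0.05 above additivity, against 1.8% of all genes. This was Ccl5, a T cell and monocyte attractant, with log2 CPM values of 7.48 and 7.41 with both cytokines, 6.72 and 6.75 with TNF, 5.47 and 5.54 with IFNG, and 5.47 and 5.33 in untreated cells. The IFNG libraries of Ccl5 overlapped the untreated ones, and the groups with TNF stood above, the pair highest. Its interaction was 0.61 ± 0.23 (SE; unadjusted p = 0.029, adjusted p = 0.962 in limma). The pair gave 174 CPM against a linear sum of 109 CPM.

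Interferon stimulated genes lay on the low side. Of 51 tested genes of the classical list, 17 had an estimate above 0 and 34 below, with a median of -0.35, against -0.04 over all genes tested. None had an unadjusted p under 0.05 above additivity and 5 did below it, against 2.13% of all genes below: Parp14, Rtp4, Tor3a, Eif2ak2 and Usp18. Of all genes tested, 572 had both single effects at 0.5 or more (log2), and 519 of these lay below additivity. In the classical list 10 genes had such effects, and all 10 lay below. The low side was thus shared by most genes that each cytokine raised alone, and is not particular to this list. On the linear scale the list was even, with 49.0% of its members above the linear sum, against 51.1% of all genes tested. The list median was below 0 in each alternative tried, between -0.47 and -0.18. Alternatives that cannot move an estimate, such as those of the variance model or without a supernatant library, left it at -0.35 by construction.

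Parp14, an ADP-ribosyltransferase gene, had log2 CPM values of 6.50 and 6.46 with both cytokines, 4.49 and 5.13 with TNF, 5.72 and 5.73 with IFNG, and 2.93 and 2.53 in untreated cells. Each single treatment stood above untreated cells and the pair stood highest, with no overlap. The interaction was -1.32 ± 0.31 (SE; unadjusted p = 0.00249, adjusted p = 0.962 in limma), and the pair gave 1.19 times the linear sum. Rtp4, which encodes a receptor-transporting protein that is induced by interferon, had log2 CPM values of 5.74 and 5.26 with both cytokines, 4.36 and 4.23 with TNF, 5.87 and 5.69 with IFNG, and 3.28 and 3.43 in untreated cells. The pair overlapped IFNG alone, and the interaction was -1.21 ± 0.33 (SE; unadjusted p = 0.0051 in limma). Usp18, a protease that removes ISG15 and restrains interferon signalling, had an estimate of -1.04. Eif2ak2, the gene of the double-stranded RNA sensor kinase PKR, was at -0.61, and Tor3a, a torsin family gene, at -0.62.

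**Figure D3:**
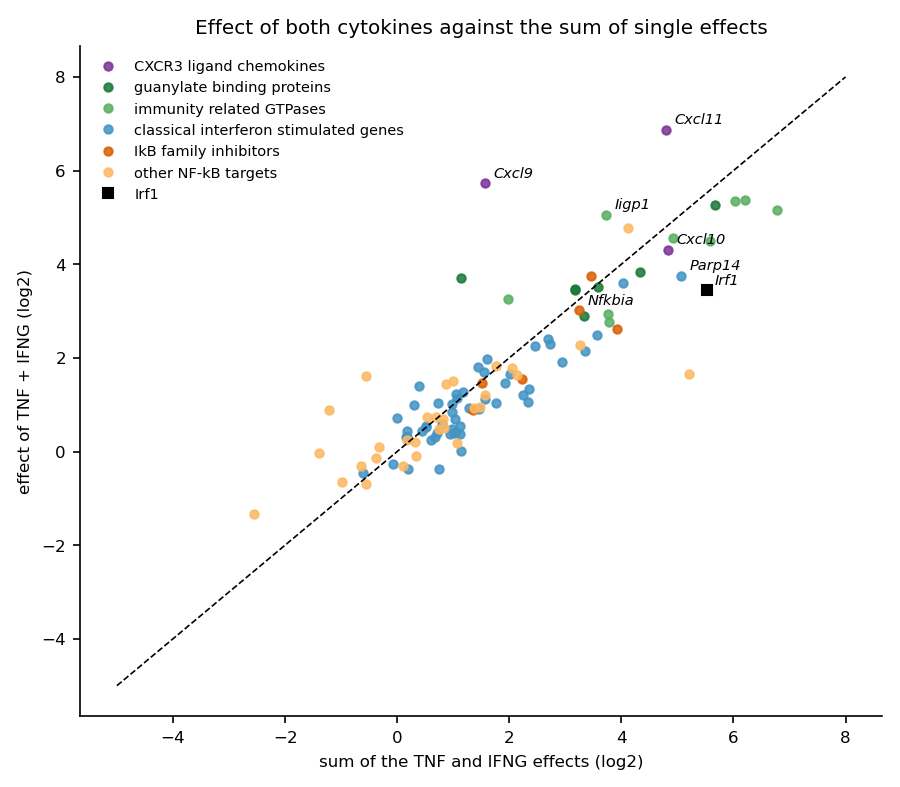
Effect of TNF + IFNG (log2 difference from untreated cells, vertical axis) against the sum of the 2 single effects (log2, horizontal axis), 1 point per gene of 6 lists and a square for Irf1. The dashed line marks additivity; Cxcl9 and Cxcl11 lie above it, Irf1, Parp14 and most immunity related GTPases below it, and the line passes close to Nfkbia.

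The 2 families of interferon-inducible GTPases, which act on vacuoles that hold pathogens, had different medians, a difference that was not tested. The guanylate binding proteins had 7 tested genes with a median of -0.07 and none under an unadjusted p of 0.05. All 7 had levels above the linear sum, against 51.1% of all genes tested. They ran from 1.19 times for Gbp7 to 5.50 times for Gbp8, and Gbp8 was below 0 log2 CPM in the 6 libraries without both cytokines. It would not have met the filter without the libraries with both cytokines, so its place in this count follows from its entry. Gbp4, the lowest of that family at -0.50, gave 0.25 when 5 CPM were added before taking logarithms. Under that setting the median of the guanylate binding proteins was 0.39, against -0.01 over all genes tested (0.18 against -0.03 with 1 CPM added). All 7, with the same limit for Gbp8, then lay above additivity and 3 had an unadjusted p under 0.05. These counts are not set against the share of all genes at that setting. The side of this family thus depends on the scale. Gbp4 and Gbp8 overlap on the same strand of chromosome 5, so values of these genes are uncertain.

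The 9 immunity related GTPases had a median of -0.81, with 7 below additivity. The median was -0.49 with 1 CPM added before taking logarithms, -0.20 with 5 CPM added and -0.52 without TNF replicate 2. Over all genes tested it was -0.03, -0.01 and -0.04 under these settings. With 5 CPM added, all 9 lay below 0 and 1 had an unadjusted p under 0.05, counts not set against the share of all genes at that setting. At an unadjusted p under 0.05, 2 lay below additivity, Irgm1 at -1.03 and Tgtp1 at -0.84, and 1 lay above it, Iigp1 at 1.32, against 2.13% and 1.8% of all genes. Irgm1 had log2 CPM values of 4.70 and 3.95 with both cytokines, 1.79 and 1.96 with TNF, 4.99 and 5.11 with IFNG, and 1.40 and 1.74 in untreated cells. Its level followed IFNG, and the 2 libraries with both cytokines lay below those with IFNG alone. In the list as a whole, 7 of 9 had a lower mean with the pair than with IFNG alone, against 6668 of 12720 genes.

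Iigp1 had log2 CPM values of 5.99 and 6.19 with both cytokines, -1.30 and 0.01 with TNF, 6.48 and 6.43 with IFNG, and 1.01 and 1.06 in untreated cells. The pair was lower than IFNG alone, and the positive estimate rests on the low TNF libraries, which lie on steps 4 and 8 of the distinct values counted from the lowest. With 5 CPM added before taking logarithms the Iigp1 estimate was -0.03, and on the linear scale the pair gave 0.79 of the linear sum. Tgtp1 and Tgtp2 are near-identical copies whose reads may be split between them, and Irgm2 and Igtp overlap on the genome, so values of these genes are uncertain.

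Negative regulators of cytokine signalling had 11 tested genes with a median of -0.21, and 3 lay below additivity at an unadjusted p under 0.05, against 2.13% of all genes: Socs1, Usp18 and Socs6. Socs1, the STAT-induced inhibitor of JAK kinases, had log2 CPM values of 5.39 and 6.15 with both cytokines, 6.10 and 5.64 with TNF, 5.83 and 6.08 with IFNG, and 4.23 and 4.59 in untreated cells. The 3 treated groups overlapped each other and stood above untreated cells. The interaction was -1.64 ± 0.45 (SE; unadjusted p = 0.00575, adjusted p = 0.962 in limma), and the pair gave 56.4 CPM against a linear sum of 99.9 CPM. Socs6, a further family member, was at -0.50.

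Of the 6 IkB family inhibitors, 5 lay below additivity, with a median of -0.35 and 1 of them under an unadjusted p of 0.05, against 2.13% of all genes below additivity. Nfkbia, the NF-kB inhibitor IkB alpha, had log2 CPM values of 11.01 and 10.69 with both cytokines, 11.28 and 11.18 with TNF, 7.73 and 7.63 with IFNG, and 7.87 and 7.79 in untreated cells. The level followed TNF, whether or not IFNG was present, and the interaction was -0.23 (95% interval -0.68 to 0.22). Bcl3, an IkB family coactivator, had an estimate of -1.31 ± 0.55 (SE; unadjusted p = 0.0424 in limma), with 5.63 and 4.59 with both cytokines, 4.94 and 4.87 with TNF, 4.16 and 3.85 with IFNG, and 2.58 and 2.41 in untreated cells. The 2 libraries with both cytokines were on either side of the TNF libraries, and when any 1 library was left out the Bcl3 estimate ranged from -1.83 to -0.79.

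The 30 tested other NF-kB targets had a median of -0.04, with 15 on each side of additivity, and 2 passed an unadjusted p of 0.05 above it, Map3k8 and Pim1, against 1.8% of all genes. Map3k8, the kinase TPL2, had an estimate of 2.18, and the libraries with both cytokines lay apart at 1.40 and 3.01. Pim1, a kinase gene, had an estimate of 1.38, with a lower level in the IFNG libraries (0.38 and -0.10) than in untreated cells (1.56 and 2.18). Of the 16 genes of A20, ubiquitin regulators, cIAPs and TRAFs none passed, and the ends were Tnfaip3, the gene of A20, at 0.82 and Birc2, the gene of cIAP1, at -0.61.

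Cell death genes gave 31 tested members with a median of -0.08, with 1 below additivity under an unadjusted p of 0.05, against 2.13% of all genes. Gsdmd, the pore-forming protein of pyroptosis, had log2 CPM values of 2.72 and 2.52 with both cytokines, 2.65 and 2.52 with TNF, 2.41 and 2.57 with IFNG, and 1.32 and 1.38 in untreated cells. The 3 treated groups overlapped each other and none overlapped untreated cells. The Gsdmd interaction was -1.11 ± 0.33 (SE; unadjusted p = 0.0089, adjusted p = 0.962 in limma), and the pair gave 0.68 of the linear sum.

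Antigen presentation showed little departure that could be resolved. The 11 MHC class I chain genes had a median of -0.06, from 0.85 for H2-Q6 to -0.72 for H2-K1, and the 17 peptide loading and immunoproteasome genes a median of -0.12, from 1.34 for Tap2 to -0.80 for Nlrc5, the class I transactivator. None of these had an unadjusted p under 0.05. The median single effects of the class I chains were 0.08 with TNF and -0.53 with IFNG. Those of the loading and immunoproteasome genes were 0.13 and 0.22. The Tap2 estimates were -1.20 with TNF, -2.30 with IFNG and -2.16 with both (SE 0.74 each), whereas those of Nlrc5 were 0.96, 2.30 and 2.47 (SE 0.37 each). Tap2 varied within groups, at 2.72 and 3.98 with both cytokines and 5.67 and 3.08 with supernatant, so its single effects are uncertain. A median near 0 is thus not an additive induction of these lists as a whole. The 7 checkpoint ligand genes had a median of -0.14, and the ends, Ceacam1 at 2.06 and Cd276 at -1.35, were genes of low level with wide intervals. Cd274, the gene of PD-L1, had log2 CPM values of 4.53 and 4.80 with both cytokines, 1.94 and 1.63 with TNF, 4.06 and 4.38 with IFNG, and 1.01 and 1.69 in untreated cells. The Cd274 groups with IFNG stood above both groups without it, and the interaction was 0.01 (95% interval -1.20 to 1.23), an interval that holds changes of more than 1 log2 unit in either direction.

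Among 28 immediate early transcription factor genes the median was 0.03. The growth regulator Myc had an estimate of 1.77 (unadjusted p = 0.004 in limma): its log2 CPM values were 2.23 and 3.01 with both cytokines, 2.79 and 2.61 with TNF, 1.54 and 1.44 with IFNG, and 3.03 and 3.64 in untreated cells. The low group was IFNG alone. Junb, an AP-1 subunit, was at -1.01, and the orphan nuclear receptor gene Nr4a2 at -0.66. Of 27 stress response genes 1 had an unadjusted p under 0.05, the angiogenic factor Vegfa at 0.58, against 1.8% of all genes above additivity, and the list median was -0.13.

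The 58 cytosolic ribosomal protein genes had a median of 0.01, from 0.64 for Rps24 to -0.58 for Rps23, with none under an unadjusted p of 0.05. The 29 proliferation genes had a median of 0.10, from 0.59 for Mcm4 to -0.62 for Ccne1, and none passed.

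Of the remaining lists, the 24 tested IFNG induced genes outside the classical list had a median of 0.18, from 2.01 for Ifi207 to -0.83 for Il15ra, and none passed. In the list of 20 tested genes known to respond to both cytokines, 3 passed above additivity, Cxcl9, Cxcl11 and Ccl5, and 1 below it, Irf1, at an unadjusted p under 0.05, against 1.8% and 2.13% of all genes. All of these were already counted in lists above. The list was chosen with earlier results of these data known, so its counts are no independent support. The median of this list was -0.09.

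**Figure D4:**
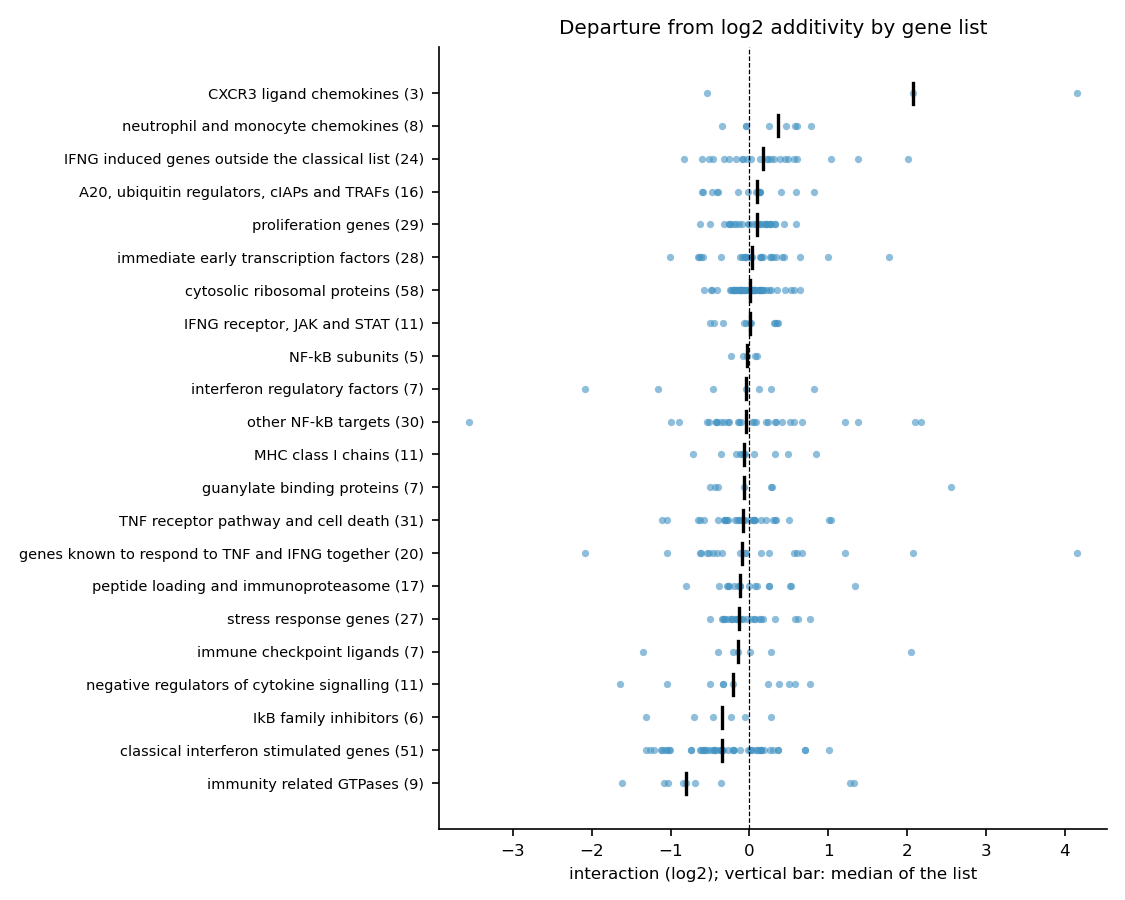
Interaction (log2, horizontal axis) of each tested gene by list, with the number of tested genes in brackets and a vertical bar at the list median. Cell type marker lists and lists with under 3 tested genes are left out. Of those shown, the CXCR3 ligands have the highest median at 2.08 and the immunity related GTPases the lowest at -0.81; the ribosomal protein genes have a median of 0.01.

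Pseudogenes and small RNAs were frequent among the genes with the smallest p and the largest estimates. Of the 12 with the smallest p above additivity, 5 were annotated pseudogenes and 3 were copies of the small nucleolar RNA U3; of the 12 below it, 7 were pseudogenes. Pseudogenes made up 9.06% of all genes tested, and 60.1% of the 306 genes with an interaction of 2 or more in either direction. At an unadjusted p under 0.05, protein-coding genes made up 61.1% of the 229 above additivity and 84.1% of the 271 below it, against 83.8% of all genes tested. The U3 copies Rnu3b1, Rnu3b3 and Rnu3b4 had estimates of 2.88, 2.87 and 2.88, and being near-identical they count as 1 observation. Rnu3b1 had log2 CPM values of 3.67 and 4.84 with both cytokines, 1.61 and 1.49 with TNF, 3.34 and 2.98 with IFNG, and 3.40 and 3.28 in untreated cells. The low group was TNF, and the pair was above the rest. The pseudogenes above additivity were Eif4a-ps4, Gm5436, Gm12396, Gm11824 and Rpl10a-ps2, at 2.03 to 4.74. Those below it were Gm6181, Gm13772, Gm15711, Gm13140, Gm10080, Gm12504 and Gm6542, at -6.21 to -1.49. Pseudogenes share sequence with their parent genes, and how reads that fit both were assigned is not stated in the labels, so these values are uncertain.

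The 12 protein-coding genes with the smallest unadjusted p on each side were added after the values were seen. Above additivity these were Cxcl9, Tgm2, Hist2h2ab, Dand5, Gm9774, Myc, Cldnd1, Dpy19l4, Ensa, Ubd, Ctla2a and Taf2. Tgm2, which encodes a protein crosslinking enzyme, had log2 CPM values of 3.40 and 3.11 with both cytokines, 0.49 and 0.77 with TNF, 1.49 and 0.10 with IFNG, and 1.01 and 1.69 in untreated cells. The pair stood above every other library, while the remaining groups lay together. The Tgm2 interaction was 3.18 ± 0.66 (SE; 95% interval 1.68 to 4.69; unadjusted p = 0.00106, adjusted p = 0.962 in limma). Its size depends on the setting: the estimate was as low as 1.295 among the 22 alternatives, and between 2.49 and 3.88 when any 1 library was left out.

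Ubd, the gene of the ubiquitin-like modifier FAT10, had log2 CPM values of 3.22 and 3.49 with both cytokines, -0.16 and -0.44 with TNF, 0.61 and 0.55 with IFNG, and -0.27 and -1.18 in untreated cells. The pair stood apart from all other libraries of Ubd, and IFNG alone stood above TNF alone and untreated cells. The single treatments lay on steps 6 to 17 of the distinct values counted from the lowest. The interaction was 2.36 ± 0.66 (SE; unadjusted p = 0.00609 in limma), and the pair gave 10.3 CPM against a linear sum of 1.67 CPM. In 10 of the 12 coding genes above additivity, all but Cxcl9 and Ubd, the estimates for both single treatments were below 0, a description of genes chosen for a positive interaction.

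Below additivity the 12 coding genes were Irf1, Tti2, Parp14, Ttpa, Nectin1, Rtp4, Prkaa2, Socs1, Nipal1, Cyp26b1, Epdr1 and Gsdmd. Nectin1, a cell adhesion gene, had log2 CPM values of 1.11 and 0.30 with both cytokines, 3.08 and 2.81 with TNF, 3.19 and 3.06 with IFNG, and 3.13 and 3.73 in untreated cells. The pair was low and all other libraries lay together, and the interaction was -1.93 ± 0.50 (SE; unadjusted p = 0.00414 in limma). Epdr1 had the same form, with 2.27 and 1.94 with both cytokines and all other libraries between 3.28 and 3.68. Cyp26b1, a retinoic acid degrading enzyme, was high with IFNG (6.17 and 6.44) and slightly lower with both cytokines (6.02 and 5.76).

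The scale on which effects are added changes the side for some genes. Of all genes tested, 51.1% lay above the linear sum of the single effects and 46.0% above log2 additivity. Cxcl9, Cxcl11, Ubd and Ccl5 lay above both. Cxcl10, Gbp4 and Parp14 lay above the linear sum and below log2 additivity, Tgtp1 lay at 1.01 times the linear sum, and Irf1, Rtp4, Gsdmd and Socs1 lay below both, at 0.85, 0.71, 0.68 and 0.56 of the linear sum.

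**Figure D5:**
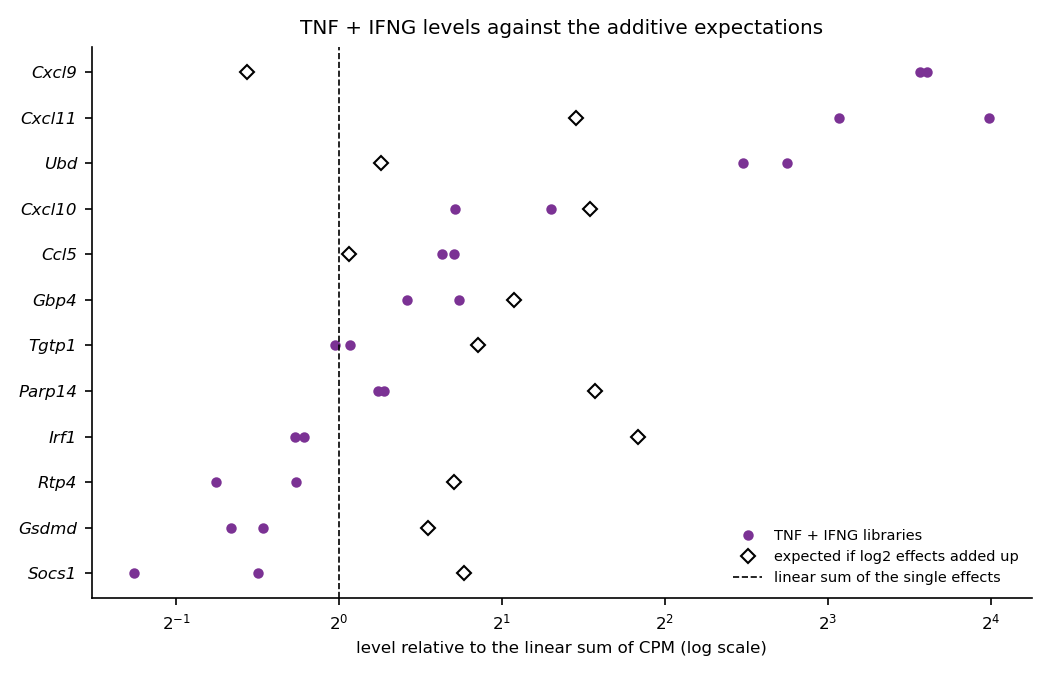
Levels with TNF + IFNG relative to the linear sum of the single effects (logarithmic axis, 1 filled point per library), with an open diamond where the log2 effects would add up and a dashed line at the linear sum. Cxcl9, Cxcl11, Ubd and Ccl5 lie right of both marks, Cxcl10, Gbp4 and Parp14 lie between them, and Irf1, Rtp4, Gsdmd and Socs1 lie left of both.

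A co-culture table of the same line, from 9 other libraries and normalised separately, gave the level of these genes beside T cells; levels cannot be set against those above. It holds 3 libraries each of MC38 cells cultured for 6 hours with OT1 T cells (CD8 T cells with a transgenic receptor for an ovalbumin peptide) under PD1 antibody, of the same co-culture under isotype control antibody, and of MC38 cells alone. The labels of the third anti-PD1 library conflict, and it was placed by its description. Cxcl9 stood at 9.39, 9.07 and 9.15 with the PD1 antibody, at 9.07, 9.35 and 9.08 with the isotype antibody, and at -1.03, 0.03 and 2.04 in MC38 alone. Its difference from MC38 alone was 8.86 ± 0.58 with the PD1 antibody (8.88 without the third library) and 8.82 ± 0.58 with the isotype antibody (SE). The co-cultures did not overlap MC38 alone.

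Ubd, Cxcl11 and Tgm2 were also high in the isotype co-culture, by 6.88, 7.20 and 4.40 over MC38 alone, and Irf1 by 3.35 ± 0.11 (SE). Of the 12 coding genes above additivity, 6 were at least 1 higher in the isotype co-culture, and of the 11 below it with an entry, 5 were, against 7.27% of the 12707 genes tested there. With the PD1 antibody these counts were 5 and 5, against 967 of the 12707 genes. Ensa, 1 of the 6 at 1.02 ± 0.53 (SE), rests on the third MC38 alone library, at 0.88 against 3.15 and 3.37. Ctla2a, another at 1.92 ± 0.83 (SE), overlapped MC38 alone, where that library was at 2.27. Gsdmd, 1 of the 5 below additivity, was low in the third MC38 alone library, at 0.29 against 2.65 and 2.53. This raises its differences of 1.98 with the isotype antibody and 1.61 with the PD1 antibody, where it stood at 3.49, 3.49 and 3.32. So genes on both sides of additivity were among those high beside T cells. The 12 and 11 genes were chosen with these results in view. T cell markers summed to 166 to 179 CPM with the PD1 antibody, 158 to 196 CPM with the isotype antibody and 5.77 to 61.8 CPM in MC38 alone, and their part in these values was not tested.

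The 8 libraries were checked against cell type markers and for depth. Of 16 colon epithelium markers, 1 has an entry, the cadherin gene Cdh1, whereas 10 of 14 mesenchymal markers have one, summing to 4648 to 6067 CPM with both cytokines, 5184 to 5673 with TNF, 5058 to 5670 with IFNG and 5526 to 5583 in untreated cells. None of the 8 endothelial markers and 2 of the 12 macrophage markers have an entry. Of 17 T cell markers, 3 have an entry, Gzma, Il2 and Lck, and none of the CD3 chains does. The Gzma estimate of 4.61 rests on values below 1 log2 CPM in all 8 libraries. The other marker estimates, Cdh1 at 2.29, Vim at 0.42, Snai2 at -0.86, Cd68 at -1.26 and Lyz2 at -0.56, had unadjusted p above 0.05. Depth, estimated from the number of distinct low values in each library, ran from about 3420000 reads in TNF_IFNG replicate 2 to 11300000 in IFNG replicate 1. The 2 libraries with both cytokines were less alike (r = 0.948 across genes, which are not independent) than those of the other 3 groups in the contrast (0.967 to 0.971).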

How the data were processed

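Libraries of total RNA were made with a kit that sequences the 3' ends of messenger RNA, per the labels' protocols. Per the submitters' processing notes, FastQC, cutadapt 1.7, HISAT2, featureCounts of Subread and limma were used with GRCm38 (mm10). Their settings, and how reads that fit several genes were counted, are not stated there. The authors deposited log2 values whose antilogs sum to 998481 to 998505 in each library, that is log2 CPM, and whose shared values show quantile normalisation. Raw counts were not used here.

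The table of 10 in vitro libraries was fitted with limma 3.58.1 in R 4.3.3, with 5 groups of 2 and an intensity trend. Residual degrees of freedom were 5 and prior ones 3.74. Genes needed a log2 value of at least 0 in 2 libraries. This left out 0 of 12721 genes, and 1 constant gene was dropped. P-values are 2-sided, adjusted by Benjamini-Hochberg over 12720 genes. Among these, 15 entries are dates in place of gene symbols and are not named. The 9 co-culture libraries had a fit of their own and gave estimates with no p. Linear sums used CPM, 2 to the power of the deposited value. The script was tested on simulated data.

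Named were all genes past the adjusted threshold, the 12 smallest p on each side, and in each of 27 lists the members with an unadjusted p under 0.05 or, where none had, the extreme members. The genes and lists were chosen with earlier results of these data known. Alternatives changed the filter, the variance model, the pseudocount, the centring and the libraries. Annotation was GENCODE's for GRCm38 and sequences were RefSeq's; 38 of the 80 named genes had a promoter window. Replicate numbers were not used to pair the samples in the main fit. Deviations of same-numbered libraries correlated between -0.0643 and 0.0941 among the 4 groups, and at -0.287 between the supernatant and TNF_IFNG groups. With 2 libraries a group, such correlations cannot settle whether libraries were paired.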

Additional observations from a re-analysis of the deposited data

Results flagged for a closer look

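The effect of TNF on Cxcl9 differed between cells with and without IFNG: it was 3.47 in the presence of IFNG and -0.68 without it (log2 differences), which is the interaction of 4.15 (limma, adjusted p = 0.00492). For Irf1 the effect of TNF was 0.39 in the presence of IFNG and 2.47 without it, an interaction of -2.08 (limma, adjusted p = 0.00492). These 2 genes were singled out because the test of the difference between effects passed its threshold.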

How the results depend on the processing

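The 22 alternatives gave Cxcl9 an interaction between 2.85 and 4.28 and Irf1 one between -2.16 and -2.00, the lowest Cxcl9 value with 5 CPM added before taking logarithms. Several of them, such as those of the variance model or without a supernatant library, cannot move an estimate. The count of genes past the adjusted threshold stayed at 2 in the planned refits that kept every library, apart from the fit with no intensity trend, which called 1, Cxcl9 (adjusted p = 0.0883 for Irf1 in limma). The refit with no filter repeats the main fit, since the filter left out 0 genes, so its count was fixed in advance. With protein-coding genes only, an alternative chosen after seeing the data, the count was also 2. With the replicate block the count was 2 (adjusted p = 0.0316 for both in limma); numbers alone are shared, and the correlation of deviations between the supernatant and the TNF_IFNG groups was -0.287. Leaving out 1 library gave counts from 0 to 9. The count was 0 without IFNG replicate 1 and without UT replicate 1, where 304 and 419 genes had an unadjusted p under 0.05. It was 9 without TNF_IFNG replicate 1, where 1683 genes had one. It was 4 without TNF replicate 2, TNF_IFNG replicate 2 or UT replicate 2. A group left with 1 library was assumed to vary like the others.

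Some estimates with wide intervals changed side. With 5 CPM added, Gbp4 was at 0.25, Ifi207 at -0.18 and Iigp1 at -0.033, and with 1 CPM added Ifi207 was at -0.056. When libraries were left out in turn, Gbp4 ranged from -1.08 to 0.082, Ifngr1 from -1.07 to 0.054, Il15ra from -2.01 to 0.36, Lyz2 from -2.63 to 1.52, Mcm4 from -0.017 to 1.19, Tnfaip3 from -0.19 to 1.82 and Tyk2 from -0.19 to 0.90. The causes were not tested. With 2 libraries a group, departures under about 0.83 were within the interval of a typical gene, and low-level genes rest on a few reads.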

Other observations

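The 2 libraries of MC38 cells given co-culture supernatant, for which no treatment time is recorded, are in no comparison of the interaction. In them Cxcl9 was at 3.28 and 3.20 log2 CPM, below the libraries with both cytokines and above all 6 others. Cxcl11 was at 2.85 and 3.08, in the same place. Ubd, at 0.99 and 0.10, lay near the single treatments (-0.44 to 0.61), and Tgm2, at 2.06 and 2.50, lay above every library but those with both cytokines. Irf1 was at 10.21 and 10.27, between the libraries with IFNG alone and those with both. Nfkbia, the TNF-responsive inhibitor of NF-kB, was at 8.19 and 8.08, near the untreated 7.87 and 7.79. Socs1 was at 7.20 and 6.46, higher than in any of the 8 libraries of the contrast.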
